A study of Mus musculus with 26 samples.

Results

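SCNx mice had a surgically ablated suprachiasmatic nucleus (SCN). In their choroid plexus, more clock genes had a day-night difference in the first 24 h of constant darkness than in the following 24 h. Of 19 clock genes, 13 had an unadjusted p under 0.05 between night and day in the first cycle and 1 in the second, beside 6.33% and 14.8% of all genes, and without the mouse at CT8 the 13 were 6. The change between the cycles had such a p for 3 of 19 clock genes, beside 8% of all genes. With CT4 to CT12 taken as day it was 0 of 19, beside 2.47%. By edgeR, no gene of the transcriptome passed an adjusted p of 0.05 for the difference between the cycles. By edgeR no gene passed that threshold for a shift in level either, while DESeq2 and limma-voom called a few. The 10 genes higher in the second cycle with the smallest p had shifts of 0.17 to 0.39 on the log2 scale. As lists, the ribosomal protein genes had fitted shifts below 0 in the second cycle and most endoplasmic reticulum (ER) chaperone genes above 0.

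The comparison used the 12 SCNx libraries of the series, of 26 libraries in all. The second cycle in constant darkness comprised 6 libraries (CT24, CT28, CT32, CT36, CT40 and CT44) and the first cycle 6 libraries (CT0, CT4, CT8, CT12, CT16 and CT20), and each library of one cycle was paired with the library of the other cycle at the same clock phase. All mice were adult male C57Bl6J, and each library came from the choroid plexus of the fourth ventricle of 1 mouse. The 12 Ctrl mice had undergone sham surgery and were killed at the same 12 time points. Mice of both groups had lived under a light-dark cycle of 12 h each for a week before the lights stayed off at CT0 (circadian time 0, the hour at which they would have come on), so the cycles count from the start of darkness and not from the lesion. Since each time point held 1 mouse, a cycle differs from the next by 6 different mice, and a difference between cycles, between individual lesions or between dissections cannot be told apart at a single time point. The labels do not give the extent of the lesion in each mouse.

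The choroid plexus epithelium secretes cerebrospinal fluid and has a circadian clock of its own. In that clock, the activators BMAL1 (Arntl) and CLOCK, or its relative NPAS2, bind E-boxes and drive Per, Cry, Nr1d and Ciart genes, whose products feed back to repress the activators or the Arntl gene. The same complex drives Dbp, Tef and Hlf, which encode transcription factors that pass the rhythm on to output genes, and NFIL3 competes with them at their sites. The SCN sets the phase of such peripheral clocks through hormones, body temperature, activity and feeding.

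The E-box with the letters CACGTG, which reads the same on both strands, was searched in the RefSeq promoters of the 19 clock genes (build GRCm38.p6, from 250 bases before to 50 bases after each transcription start). An entry was found for 16 of the 19 genes, with 21 promoters in all. The letters were present in 6 of these 21 promoters (28.6%), against 2349 of 32851 promoters of all genes (7.15%), and in 5 of the 16 genes (Ciart, Bhlhe41, Tef, Cry1 and Per1). The promoters of Ciart, Bhlhe41 and Tef are shown because these were the genes with a match that were lower at night in the first cycle, and the capitals mark each CACGTG. The Ciart promoter lies at chr3:95882179-95882478 on the minus strand, that of Bhlhe41 at chr6:145865371-145865670 on the minus strand, and the pair of Tef promoters at chr15:81802423-81802722 and chr15:81811164-81811463 on the plus strand.
Ciart: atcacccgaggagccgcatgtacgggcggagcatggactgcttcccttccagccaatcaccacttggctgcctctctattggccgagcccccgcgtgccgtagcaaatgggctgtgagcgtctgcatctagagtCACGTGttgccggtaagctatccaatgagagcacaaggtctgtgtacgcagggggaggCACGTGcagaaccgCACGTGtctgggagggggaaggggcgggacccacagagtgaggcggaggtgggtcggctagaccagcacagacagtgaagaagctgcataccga
Bhlhe41: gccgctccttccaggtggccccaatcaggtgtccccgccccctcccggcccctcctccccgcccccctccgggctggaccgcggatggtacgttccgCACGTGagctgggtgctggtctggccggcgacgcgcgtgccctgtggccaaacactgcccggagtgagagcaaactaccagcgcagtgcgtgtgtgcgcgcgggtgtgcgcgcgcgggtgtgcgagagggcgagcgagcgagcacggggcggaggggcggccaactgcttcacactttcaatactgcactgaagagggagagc
Tef, upstream start: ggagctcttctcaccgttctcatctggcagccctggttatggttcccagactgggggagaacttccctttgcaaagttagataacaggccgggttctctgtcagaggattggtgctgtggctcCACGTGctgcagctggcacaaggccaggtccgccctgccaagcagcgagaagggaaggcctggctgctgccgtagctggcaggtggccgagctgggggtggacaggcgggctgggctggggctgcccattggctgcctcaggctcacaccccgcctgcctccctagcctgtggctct
Tef, downstream start: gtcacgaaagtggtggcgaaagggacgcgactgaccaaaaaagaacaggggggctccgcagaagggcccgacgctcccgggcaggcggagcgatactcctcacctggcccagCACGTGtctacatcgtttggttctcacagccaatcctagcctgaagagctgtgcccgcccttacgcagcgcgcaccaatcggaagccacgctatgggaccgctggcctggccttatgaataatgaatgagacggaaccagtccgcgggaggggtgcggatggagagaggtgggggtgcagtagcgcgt
The Ciart window held 3 matches and each of the others held 1. The windows of Dbp, Per3, Cry2, Nr1d2 and Hlf, which were also lower at night in the first cycle, held none.

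The SCNx libraries held 41807000 to 49527614 estimated counts, and the Ctrl libraries 38751162 to 47335226. Levels are given as CPM, the counts scaled to library size with TMM factors, and 14232 genes with a mean of at least 1 CPM over the 12 SCNx libraries were tested. The epithelial markers marked the tissue as labelled, with a summed level of 106757 to 167887 CPM. A few libraries stood apart in transcripts of other tissues. In SCNx CT0 the hepatocyte markers summed to 15083 CPM, against 4.4 to 21.8 CPM in the other libraries of its cycle. SCNx CT32 held 620.8 CPM of neuronal and cerebellar markers, 824.9 CPM of astrocyte markers and 262.0 CPM of oligodendrocyte markers, and the lowest epithelial sum. SCNx CT44 held 6659 CPM of red blood cell markers. The library with the liver transcripts lies in the first cycle and that with the brain transcripts in the second, so the results were also computed without both. For the level shift, fitted with the clock phase as a block, this left SCNx CT24 and SCNx CT8 without a partner. Those fits therefore compared the cycles without either of these phase pairs.

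The day-night difference was taken as night (CT12, CT16 and CT20, or CT36, CT40 and CT44) minus day (CT0, CT4 and CT8, or CT24, CT28 and CT32), with 3 mice on each side. With edgeR's quasi-likelihood test and Benjamini-Hochberg adjustment, 0 of 14232 genes passed an adjusted p of 0.05 in either cycle, and the lowest adjusted p was 0.652 in the first cycle and 0.337 in the second. The first cycle had 901 genes (6.33%) with an unadjusted p under 0.05 and the second 2110 (14.8%), while DESeq2 called 4 and 10 genes at an adjusted p under 0.05. Without SCNx CT0 and SCNx CT32 the unadjusted counts were 693 (5.11% of 13556) and 727 (5.36%). The median absolute day-night difference over all genes was then 0.0823 and 0.0962 on the log2 scale, against 0.0921 and 0.141 with all libraries. The larger count of the second cycle was not seen without these libraries. Left out singly, SCNx CT32 gave 640 genes (4.63%) in the second cycle, SCNx CT36 812 (5.68%) and SCNx CT0 2100 (15%). The highest count of a single leave-out was 2912 (20.4%), without SCNx CT24.

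The clock genes went the other way. All 19 were tested, and 13 of them had an unadjusted p under 0.05 in the first cycle, beside 6.33% of all genes. Arntl, Clock, Npas2 and Nfil3 (4 of 19, beside 1.69% of all genes) were higher at night, while Per2, Per3, Cry2, Nr1d2, Dbp, Tef, Hlf, Ciart and Bhlhe41 (9 of 19, beside 4.64%) were lower. In the second cycle 1 of 19 (Rora, lower at night) had an unadjusted p under 0.05, beside 14.8% of all genes. The median difference over the list was -0.36 in the first cycle and -0.0677 in the second on the log2 scale, against -0.0057 and -0.0183 over all genes. The test of the change itself, night minus day in the second cycle less the same in the first, gave an unadjusted p under 0.05 for 3 of 19 clock genes (Clock, Dbp and Ciart), beside 1138 of all genes (8%), and adjusted p was 0.588 for each. A smaller difference in the second cycle is therefore a description of the clock genes as a list, and was not resolved gene by gene. The 19 genes belong to 1 loop and were measured in the same 3 mice on each side. Their counts are therefore not independent observations of a cycle.

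Ciart, which encodes the repressor CHRONO, spanned the widest range. Its levels were 1.43, 2.23 and 5.23 CPM by day (CT0, CT4, CT8) and 1.07, 0.368 and 0.401 CPM by night (CT12, CT16, CT20) of the first cycle. In the second cycle they were 1.24, 1.25 and 1.37 CPM by day and 0.996, 0.720 and 0.811 CPM by night. Day and night did not overlap in either cycle, and the ratio of the highest to the lowest library was 14.2 in the first and 1.9 in the second. The fitted night minus day difference was -2.26 ± 0.53 (SE, n = 3 against 3) in the first cycle and -0.62 ± 0.51 in the second, and the change between them was 1.65 ± 0.73 (edgeR, adjusted p = 0.588). In Ctrl mice the same ratio was 34.5 in the first cycle and 107 in the second, so the sham-operated mice had wide ranges in both.

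Dbp, an output transcription factor of the clock, had 35.1, 39.7 and 88.5 CPM by day and 26.9, 19.4 and 17.5 CPM by night in the first cycle. In the second cycle it had 26.3, 23.3 and 21.9 CPM by day and 31.3, 16.6 and 24.5 CPM by night, with day and night overlapping. The difference was -1.35 ± 0.35 and then 0.01 ± 0.34 on the log2 scale (change 1.36 ± 0.49, edgeR adjusted p = 0.588). Tef and Hlf, of the same family, followed the same course. Tef stood at 110, 115 and 166 CPM by day against 92.6, 75.5 and 80.5 CPM by night, and at 105, 88.9 and 105 CPM against 107, 73.9 and 95.5 CPM in the second cycle. Hlf had differences of -0.40 ± 0.15 and -0.20 ± 0.15, with day and night apart in the first cycle only.

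The repressors of the Per and Cry families were less uniform. Per3 had 27.6, 31.7 and 39.02 CPM by day and 22.9, 14.6 and 18.7 CPM by night, then 30.3, 25.0 and 37.0 CPM against 23.9, 20.5 and 26.1 CPM. Its difference of -0.80 ± 0.20 in the first cycle and -0.40 ± 0.20 in the second kept its direction, and the change of 0.41 ± 0.28 was within the error. Per2 had 34.5, 34.8 and 40.9 CPM by day and 29.2, 17.3 and 25.5 CPM by night of the first cycle, and 43.0, 28.8 and 34.3 CPM against 28.7, 32.7 and 26.7 CPM in the second. Its day and night values were apart in the first cycle and overlapped in the second (-0.61 ± 0.19 and -0.27 ± 0.19). Cry2 went from -0.36 ± 0.14 to 0.04 ± 0.14. Per1 (-0.18 ± 0.21 and -0.06 ± 0.21) and Cry1 (0.06 ± 0.18 in both cycles) differed by about their error or less in each cycle.

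Arntl, the activator that runs opposite to the repressors, had 10.3, 8.06 and 3.27 CPM by day and 13.7, 19.9 and 20.7 CPM by night of the first cycle. In the second cycle it had 11.1, 17.2 and 15.8 CPM by day and 10.9, 21.8 and 16.4 CPM by night, and the groups overlapped. The differences were 1.33 ± 0.40 and 0.15 ± 0.39 on the log2 scale, and the change was -1.18 ± 0.55. Clock, its partner, had 155, 176 and 123 CPM by day and 175, 196 and 211 CPM by night, then 196, 199 and 174 CPM against 164, 200 and 181 CPM. Its difference was 0.37 ± 0.13 and -0.07 ± 0.13 (change -0.43 ± 0.18, edgeR adjusted p = 0.588). Npas2 (0.60 ± 0.20 and 0.25 ± 0.20) and Nfil3 (0.48 ± 0.20 and 0.27 ± 0.20) kept the sign of the first cycle with less than its size.

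Among the nuclear receptors that act on the Arntl promoter, Nr1d2 had 111, 140 and 192 CPM by day against 113, 89.8 and 110 CPM by night in the first cycle, a difference of -0.50 ± 0.19. In the second cycle its 117, 118 and 101 CPM by day stood against 112, 77.8 and 107 CPM by night (-0.18 ± 0.19). Nr1d1 had 27.9, 21.6 and 36.9 CPM by day and 23.2, 21.0 and 16.7 CPM by night, and in the second cycle a single mouse, CT28 with 35.5 CPM, lay above the 14.3 to 20.7 CPM of the others. Rora was the member that differed in the second cycle and not in the first, with 78.7, 86.4 and 85.8 CPM by day against 70.1, 75.4 and 71.1 CPM by night (-0.22 ± 0.10, edgeR adjusted p = 0.337). The repressors Bhlhe40 and Bhlhe41 had first-cycle differences of -0.23 ± 0.15 and -0.80 ± 0.32, and 0.05 ± 0.15 and -0.25 ± 0.32 in the second.

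**Figure D1:**
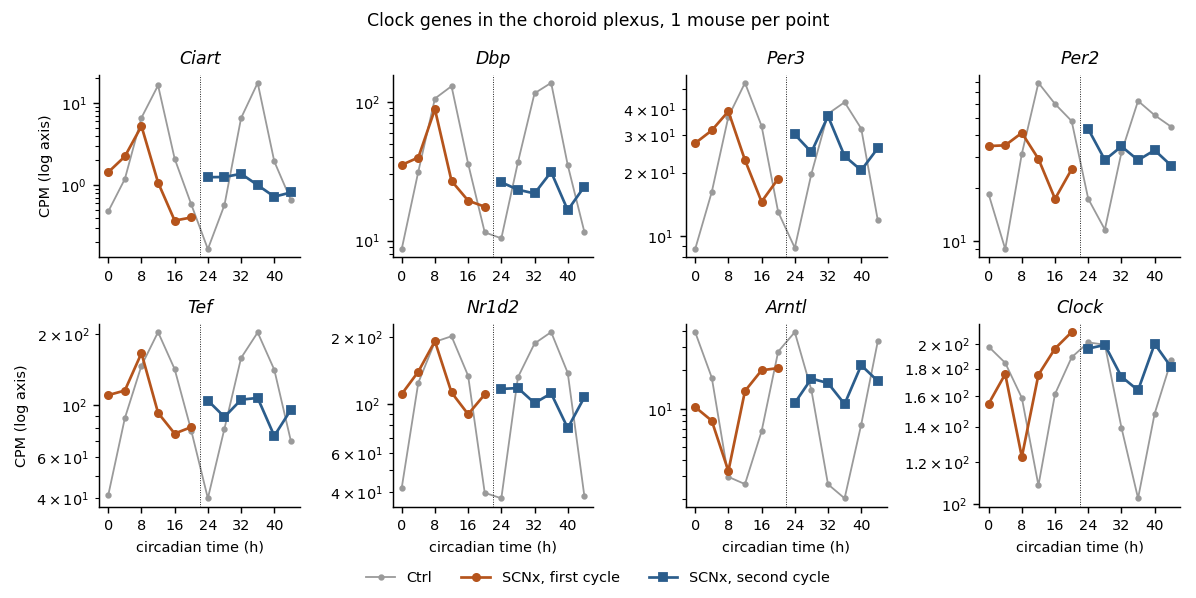
Levels of 8 clock genes (vertical axes, CPM, log scale) against circadian time (horizontal axes, h) in Ctrl mice (grey) and in SCNx mice of the first (orange) and second (blue) cycle, 1 mouse per point. In SCNx mice Ciart, Dbp, Tef and Nr1d2 were highest at CT8 and Arntl and Clock lowest at CT8, while the second cycle was flatter than the first and than Ctrl.

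Counted without any model, night and day values did not overlap for 11 of 19 clock genes (57.9%) in the first cycle and for 2 (Rora and Ciart, 10.5%) in the second, beside 11% and 19.7% of all genes. The range of log2 levels over the 6 mice of a cycle had a median of 0.942 over the clock list in the first cycle and 0.616 in the second. It was wider in the first cycle for 15 of 19 clock genes (78.9%), against 37.9% of all genes. Without SCNx CT8 and SCNx CT32 it was wider for 13 of 19 clock genes (68.4%), against 57.6% of all genes. In Ctrl the medians were 2.34 and 2.24, and the first cycle was wider for 13 of 19, against 60.1% of all genes. By these medians the clock genes of SCNx mice ranged less than those of Ctrl in both cycles, and least in the second.

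A single mouse carried much of the first-cycle difference. SCNx CT8 was the highest first-cycle library for 12 of 19 clock genes (63.2%), against 17.1% of all genes, and it was the lowest for Arntl, Clock, Npas2 and Nfil3. When that library was left out, 6 of 19 clock genes had an unadjusted p under 0.05 in the first cycle, beside 7.46% of all genes, and 1 of 19 had such a p for the change between cycles. Without SCNx CT20 the first-cycle count was 8. Single leave-outs gave 0 to 5 clock genes for the change, the 0 without SCNx CT36. Without SCNx CT0 and SCNx CT32 the counts were 13 in the first cycle, 0 in the second and 8 for the change, beside 2.85% of all genes, the lowest adjusted p for a clock gene being 0.968, and 1 gene of the whole table (0.00738%), Gm2446, passed the adjusted threshold for the change and for the second cycle. With the day taken as CT4 to CT12 and the night as CT16 to CT0, 6 clock genes had such a p in the first cycle and 0 in the second. The shares of all genes were 5.08% and 6.6%. With these hours 0 of 19 had such a p for the change, beside 2.47% of all genes. The list median of the change was then 0.0947, against 0.278 in the main fit. The first-cycle count stayed above the second-cycle count in each of these settings, while its size turned on which mice and hours were called day.

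**Figure D2:**
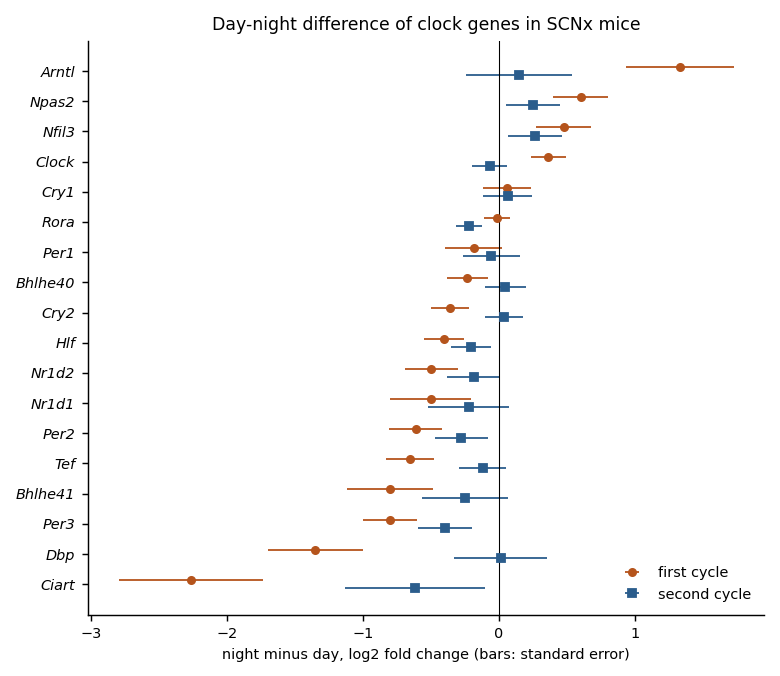
Night minus day differences (horizontal axis, log2 fold change, bars are standard errors, 3 mice against 3) of the clock genes named in the text in SCNx mice in the first (orange circles) and second cycle (blue squares). First-cycle values ran from -2.26 for Ciart to 1.33 for Arntl, and the second-cycle values from -0.62 to 0.27.

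Measured along the 24 h phase that each gene had in the Ctrl mice, the clock genes of SCNx mice had little rhythm at that phase in either cycle. A gene that cycles at another phase scores low by this measure, so a low value is not an absence of amplitude. The median of this measure over the list was 0.0473 on the log2 scale in the first cycle and 0.0403 in the second. In each cycle 13 of 19 genes were above 0, beside 56.7% and 56% of all genes. In Ctrl the medians were 1.11 and 1.12, with all 19 genes above 0. The phase was fitted in these same Ctrl libraries, which favours values above 0 there (93.5% and 92.2% of all genes). The groups are therefore not compared on equal terms. The medians over all genes in SCNx mice were 0.0129 and 0.015. The first-cycle extremes of SCNx mice were 4 h ahead of Ctrl for Ciart and Dbp, whose highest Ctrl library was CT12, and Arntl was lowest at CT8 in SCNx and at CT12 in Ctrl. Such a difference rests on 1 mouse per time point. A fit of a 24 h cosine and sine per cycle gave 206 genes (1.45%) with an unadjusted p under 0.05 for a difference in pattern between the cycles and 0 at an adjusted p under 0.05 by edgeR.

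By the count of members with a day-night difference, the ER folding and stress genes went against the clock list. These encode chaperones and disulfide isomerases of the secretory pathway, which the epithelium uses to release proteins into the cerebrospinal fluid. Of 29 members tested, 8 had an unadjusted p under 0.05 in the first cycle and 14 in the second, all higher at night, beside 1.69% and 5.09% of all genes in that direction. The list median was 0.154 and then 0.301 on the log2 scale, and without SCNx CT0 and SCNx CT32 it was 0.184 and 0.242, with 9 and 14 members. The first-cycle count was 2 of 29 without SCNx CT8 (median 0.0773), beside 7.46% of all genes in either direction. Without SCNx CT16 it was 3, with 2 higher and 1 lower at night, beside 3.79%. With the day at CT4 to CT12 the counts of the 2 cycles were 1 and 3, beside 5.08% and 6.6%. The first-cycle count thus stood out from all genes only with some mice and hours. Night and day did not overlap for 8 (27.6%) and 16 (55.2%) members. None of the 29 had an unadjusted p under 0.05 for the change between the cycles (list median 0.114), so a larger difference in the second cycle was not resolved.

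Pdia3, a disulfide isomerase of glycoprotein folding, had 680, 647 and 622 CPM by day and 724, 826 and 716 CPM by night of the first cycle. In the second cycle it had 666, 697 and 584 CPM by day and 797, 897 and 809 CPM by night, with no overlap in either. The differences were 0.22 ± 0.09 and 0.36 ± 0.09. Pdia3 and the other genes named for their day-night difference among ER and heat shock genes were chosen after their values were seen. Pdia6 (0.28 ± 0.08 and 0.34 ± 0.08), Pdia4 (0.15 ± 0.09 and 0.38 ± 0.09) and Xbp1, a transcription factor of the unfolded protein response (0.29 ± 0.13 and 0.32 ± 0.13), had the same sign in both cycles. Hspa5, the main ER chaperone BiP, had 1408, 1361 and 859 CPM by day and 1380, 1697 and 1274 CPM by night, then 1343, 1433 and 1309 CPM against 1551, 2131 and 1842 CPM. Its groups overlapped in the first cycle and not in the second (0.27 ± 0.19 and 0.43 ± 0.19).

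The heat shock genes encode chaperones that follow body temperature in many tissues, and the mitochondrial Hspd1 was counted among them. Of 21 members, 1 (Stip1, 0.17 ± 0.07) had an unadjusted p under 0.05 in the first cycle and 10 in the second. All were higher at night, beside 1.69% and 5.09% of all genes. The list median was 0.104 and then 0.257 on the log2 scale. SCNx CT40 held a sum of 7680 CPM of the list, above the 5573 to 6355 CPM of the rest of its cycle. Without that library 2 members had such a p in the second cycle, 4 without SCNx CT32 and 6 without SCNx CT28. The shares of all genes in either direction were then 12%, 4.63% and 19%. All 4 cold-inducible RNA-binding protein genes had a difference below 0 in the first cycle, and 3 of 4 in the second (median -0.381 and -0.206). Rbm3 had 79.9, 75.0 and 79.5 CPM by day and 55.0, 62.5 and 41.2 CPM by night (-0.56 ± 0.18), then 79.2, 82.0 and 63.9 CPM against 79.4, 61.4 and 98.2 CPM (0.08 ± 0.18). Cirbp had -0.84 ± 0.28 and then -0.11 ± 0.28. For both genes day and night were apart in the first cycle and overlapped in the second. Rbmx had -0.20 ± 0.17 and then -0.39 ± 0.17, the one member with an unadjusted p under 0.05 in the second cycle.

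Among blood vessel markers, Kdr and Rgs5 had lower levels at night in both cycles, while the rest were less uniform. Kdr, the VEGF receptor of endothelial cells, had 78.7, 85.1 and 71.6 CPM by day and 70.6, 62.8 and 49.6 CPM by night of the first cycle, and 89.8, 107 and 100 CPM against 52.8, 71.0 and 68.97 CPM in the second. The differences were -0.36 ± 0.15 and -0.63 ± 0.15. All 4 endothelial markers had a difference below 0 in each cycle, with a median of -0.401 and then -0.554, and 1 and 2 of them had an unadjusted p under 0.05, beside 4.64% and 9.73% of all genes. The first-cycle median was -0.229 without SCNx CT20, and the second-cycle median was -0.115 with the day at CT4 to CT12, with 0 of 4 at such a p. Rgs5, a pericyte marker, had 157, 185 and 172 CPM by day and 142, 155 and 106 CPM by night, then 225, 220 and 222 CPM against 112, 170 and 108 CPM (-0.35 ± 0.18 and -0.78 ± 0.18). Of the 5 pericyte and smooth muscle markers all had a difference below 0 in the first cycle and 3 in the second, with 1 at such a p in each, and the second-cycle median of -0.271 turned to 0.11 without SCNx CT36. Day and night of Kdr and Rgs5 were apart in both cycles. In whole tissue, fewer cells of a type and less RNA per cell cannot be told apart.

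**Figure D3:**
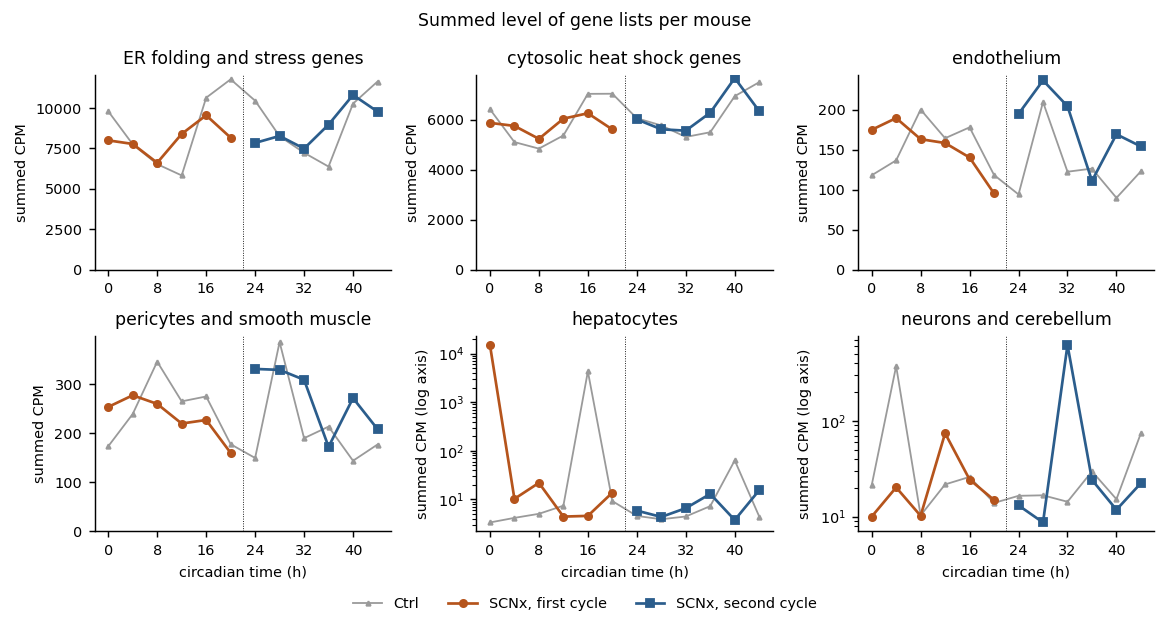
Summed levels (vertical axes, CPM, log scale for hepatocytes and for neurons and cerebellum) of 6 gene lists against circadian time (horizontal axes, h) in Ctrl (grey) and in SCNx mice of the first (orange) and second (blue) cycle, 1 mouse per point. ER genes were highest at CT16 and at CT40 in SCNx mice, hepatocyte markers reached 15083 at CT0 and neuronal markers 620.8 at CT32.

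The genes with the smallest p for the change of their day-night difference were not clock genes. Os9, an ER lectin of protein quality control, had 203, 195 and 210 CPM by day and 202, 191 and 179 CPM by night of the first cycle, and 182, 181 and 169 CPM against 229, 209 and 204 CPM in the second (change 0.34 ± 0.09). Chrna4, a nicotinic receptor subunit (0.57 ± 0.15), Wdr24, a regulator of mTORC1 (0.37 ± 0.10), Retsat, retinol saturase (0.55 ± 0.15), Thnsl2 (0.74 ± 0.20) and Acad10 (0.43 ± 0.12) likewise had a fitted difference below 0 in the first cycle and above 0 in the second. Spred1, an inhibitor of Ras signaling, had 54.9, 63.4 and 58.9 CPM by day and 63.7, 64.4 and 67.5 CPM by night, then 74.4, 72.8 and 80.3 CPM against 58.3, 67.2 and 62.2 CPM (change -0.43 ± 0.10). Plpp3, a lipid phosphatase, had a change of -0.67 ± 0.18, with 151 CPM at CT32 above the 84.5 to 117 CPM of its other libraries. With the opposite signs stood the zinc finger genes Zfp942 (-0.49 ± 0.12), Zfp119a (-1.11 ± 0.31), Zfp974 (-0.49 ± 0.14) and Zfp595 (-0.59 ± 0.17), which share sequence with relatives, so their reads are uncertain, and Nol4 (-0.52 ± 0.15) and Yeats2 (-0.31 ± 0.09). For all of them the adjusted p of edgeR was 0.588. The platelet gene Ppbp rested on 2 mice (6.80 CPM at CT4 and 7.41 CPM at CT44), and the liver gene Mup7 was the other in the list.

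The level shift, second minus first cycle with the clock phase as a block, had 0 of 14232 genes at an adjusted p under 0.05 with edgeR, the lowest being 0.600. An unadjusted p under 0.05 was found for 1106 genes (7.77%), 465 higher (3.27%) and 641 lower (4.5%) in the second cycle, while DESeq2 called 10 genes and limma-voom 9. Without SCNx CT0 and SCNx CT32, and so without the pairs at their phases, the unadjusted count was 664 (4.9% of 13556). In Ctrl, 1246 of 13773 genes (9.05%) had such a p for the same contrast and 5 (0.0363%) passed the adjusted threshold, namely Fga, Fgb, Fgg, Orm1 and Saa2, all liver genes, in a group whose CT16 library held 4318 CPM of hepatocyte markers. The median absolute shift was 0.0975 on the log2 scale in SCNx and 0.0653 in Ctrl.

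The 10 genes higher in the second cycle with the smallest p were higher in 6 of 6 phase pairs, which 2.68% of all genes were. They were picked by the p of this same contrast, so the pair count is no added support. The same holds for the pair counts of the list members named below. Pdcd11 and Rrp12, which serve the processing of ribosomal RNA, were among them. Pdcd11 had a lowest, median and highest level of 30.5, 33.4 and 37.6 CPM in the first cycle and 36.4, 41.4 and 42.3 CPM in the second, a shift of 0.26 ± 0.05 (SE, 6 pairs). The ranges overlapped by 1 mouse of the first cycle, CT4. Rrp12 had 14.5, 17.6 and 20.2 CPM, then 19.2, 21.1 and 22.9 CPM (0.26 ± 0.06). In Ctrl the shifts of both were -0.07 ± 0.06 and 0.01 ± 0.04.

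Other genes of this group serve the cytoskeleton, cell contacts and cilia. The motile cilia list as a whole was split, with 9 of 19 members below 0 and a median shift of 0.0248. Vcl, the adhesion protein vinculin, had 20.1, 29.6 and 37.6 CPM and then 29.5, 37.4 and 47.4 CPM (0.39 ± 0.09). Myo7a, an unconventional myosin, had 214, 262 and 325 CPM and then 283, 315 and 350 CPM (0.24 ± 0.06). The axonemal dyneins Dnah2 (0.25 ± 0.06) and Dnah9 (0.36 ± 0.09), the tight junction protein gene Patj (0.17 ± 0.04), Thbs1 (0.27 ± 0.06) and the checkpoint kinase gene Atr (0.29 ± 0.07) were also among the 10. All 10 had a transcript of at least 4340 nucleotides. Without SCNx CT0 and SCNx CT32 the shifts of those named ran from 0.17 for Patj to 0.32 for Vcl.

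Lower in the second cycle, Pet100, an assembly factor of cytochrome c oxidase, was the clearest. It had 13.3, 13.5 and 14.1 CPM in the first cycle and 9.73, 10.8 and 12.1 CPM in the second, with no overlap (-0.32 ± 0.06). Pet100 was lower in 6 of 6 pairs, which 3.01% of all genes were. It too was picked by the p of this contrast, so its pair count is no added support. Hras, a small GTPase of growth factor signaling, had 38.4, 43.0 and 45.2 CPM and then 32.8, 36.0 and 39.7 CPM (-0.23 ± 0.04). Its ranges overlapped by 1 mouse of the first cycle. The other 8 of the 10 (Abcb11, Cyp2c29, Cyp17a1, Cyp2c69, Habp2, Cyp4a14, Cyp2b9 and Hamp2) are genes of liver or steroid metabolism whose counts came almost only from SCNx CT0, for example Cyp2c29 with 147 CPM there and 0 in all 6 libraries of the second cycle. They had no usable fold.

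**Figure D4:**
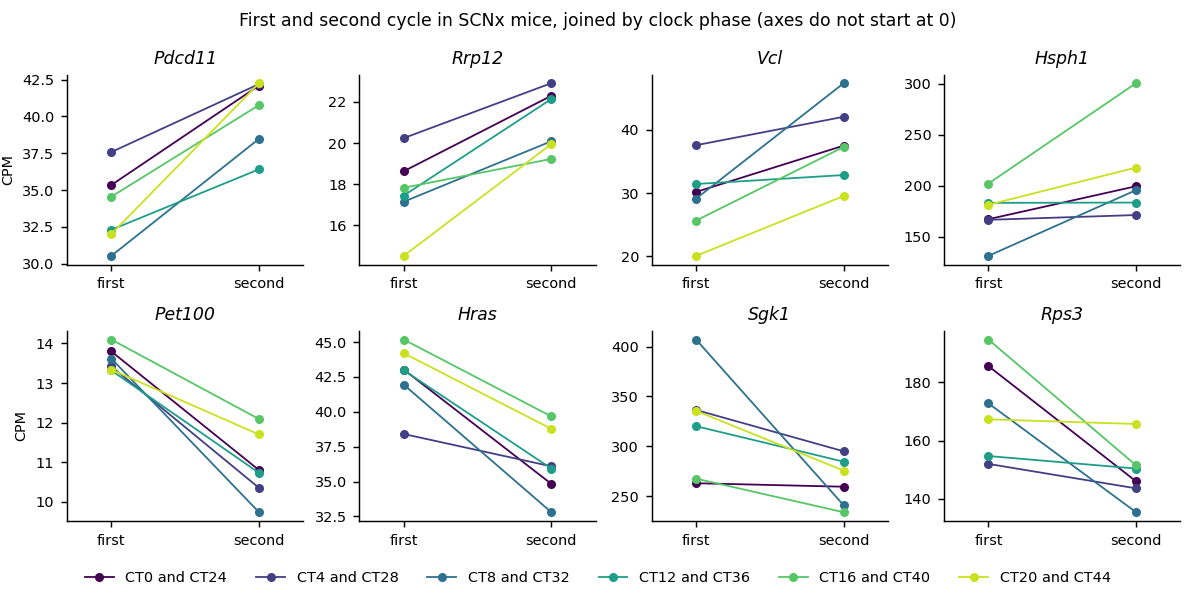
Levels (vertical axes, CPM, not starting at 0) of 8 genes in SCNx mice in the first and second cycle, with lines joining the mice of the same clock phase. The 4 genes of the upper row were higher in 6 of 6 pairs in the second cycle and the 4 of the lower row lower in 6 of 6 pairs.

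For 15 genes the second cycle lay wholly above the first (0.105% of genes) and for 36 wholly below (0.253%). The genes above included Zfp326 (0.26 ± 0.07), Smc1a, a cohesin subunit (0.16 ± 0.05), and Ddx5, an RNA helicase (0.15 ± 0.05). Those below included several small nuclear-encoded components of mitochondrial respiration, Ndufb4c (-0.33 ± 0.07), Uqcc2 (-0.35 ± 0.08) and Uqcrh (-0.31 ± 0.07), and the RNA polymerase subunit Polr2f (-0.32 ± 0.08). These genes were chosen after their values were seen. None of the 51 passed the adjusted threshold.

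The direction of the shift went with transcript length. The 14209 genes with a length (the longest annotated transcript) were split into 5 bins of about equal size, with a median of 1375, 2448, 3405, 4516 and 6907 nucleotides. The median shift was -0.115, -0.0406, -0.000387, 0.0402 and 0.0983 on the log2 scale from the shortest to the longest bin. In the shortest bin 20 genes had an unadjusted p under 0.05 upward and 393 downward, and in the longest 242 upward and 9 downward. Of the 36 genes wholly below, 26 were in the shortest bin and none in the longest, and of the 15 wholly above none was in the shortest and 5 in the longest. The shift by length was smaller without SCNx CT0 and SCNx CT32 (-0.0397 to 0.014). That fit also lacked their phase partners SCNx CT24 and SCNx CT8, so the libraries behind the smaller shift cannot be told apart. In Ctrl the shift by length ran the other way (0.042 to -0.0655).

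Per library, the median log2 level of the longest bin minus that of the shortest, each gene taken against its mean over the group's 12 libraries, was lowest at SCNx CT0 (-0.258) and SCNx CT8 (-0.227) and highest at SCNx CT32 (0.364). The index was higher in the second cycle in 4 of 6 pairs in SCNx and in 2 of 6 in Ctrl. The part of this index in the shifts of the genes named here was not tested.

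**Figure D5:**
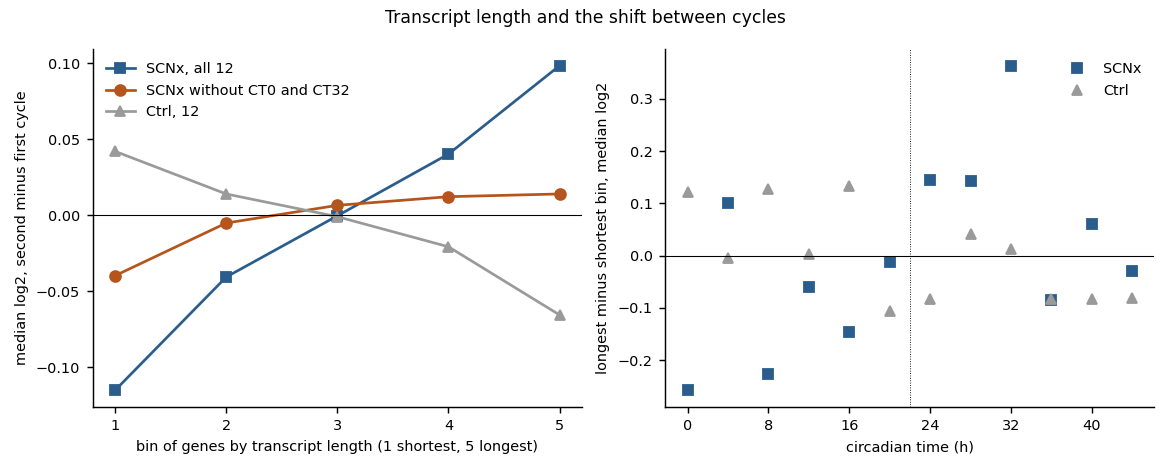
Left, median shift between the cycles (vertical axis, log2) by bin of transcript length (horizontal axis, 1 shortest) in SCNx, in SCNx without CT0 and CT32, and in Ctrl, and right, the longest minus the shortest bin in each library (median log2) against circadian time (h). The SCNx median went from -0.115 to 0.0983 and the Ctrl median from 0.042 to -0.0655, and SCNx CT32 was the highest library.

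The cytosolic ribosomal proteins, whose transcripts are short, were the list with the most members lower in the second cycle. All 36 had a shift below 0 (51.3% of all genes were above 0), with 18 at an unadjusted p under 0.05, beside 4.5% of all genes, and a median of -0.181 against 0.00519 over all genes. Rps3 had 152, 170 and 195 CPM in the first cycle and 135, 148 and 166 CPM in the second (-0.20 ± 0.06, lower in 6 of 6 pairs). Rps15 (-0.23 ± 0.07) and Rps14 (-0.25 ± 0.08) were lower in 5 of 6 pairs. Without SCNx CT0 and SCNx CT32, and so with fewer pairs, all 36 were still below 0. The median was then -0.0687, with no member at an unadjusted p under 0.05. Leaving out 1 library at a time gave 0 members at such a p (without SCNx CT40) to 32 (without SCNx CT20 or SCNx CT44, the same phase pair). In Ctrl all 36 were above 0, with a median of 0.0584. Many of these genes have processed pseudogenes that share their reads. The mitochondrially encoded genes had a median of -0.0157.

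Most ER genes had fitted shifts above 0. Of 29, 26 were above 0 and 7 had an unadjusted p under 0.05, all upward, beside 3.27% of all genes, with a median of 0.0893 on the log2 scale, and none passed the adjusted threshold. Creld2, a secreted ER stress protein, had 27.4, 37.8 and 56.8 CPM and then 37.9, 43.6 and 68.0 CPM (0.34 ± 0.11, higher in 6 of 6 pairs). Hyou1, an ER chaperone, had 134, 194 and 239 CPM and then 184, 230 and 308 CPM (0.35 ± 0.13). Sel1l (0.22 ± 0.08) and Syvn1 (0.24 ± 0.09), partners in the disposal of misfolded proteins, were higher in 5 of 6 pairs. The list median was 0.129 without SCNx CT0 and SCNx CT32, and 0.0595 in Ctrl, where 6 of 29 had an unadjusted p under 0.05 upward and 1 downward. The test of the difference from Ctrl gave 1 of 29 members an unadjusted p under 0.05, so a difference between the groups was not resolved for its members.

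Smaller numbers of members stood out in other lists. Of 21 heat shock genes, 4 had an unadjusted p under 0.05 upward (3.27% of all genes), and 0 without SCNx CT0 and SCNx CT32, among the 4 Hsph1 (132, 174 and 202 CPM, then 172, 198 and 301 CPM; 0.28 ± 0.09) and Hsp90aa1 (948, 1142 and 1246 CPM, then 1120, 1223 and 1639 CPM; 0.17 ± 0.07), both higher in 6 of 6 pairs. Among 15 glucocorticoid targets 2 had such a p downward, beside 4.5% of all genes. Sgk1, a kinase that regulates ion transport, had 263, 328 and 407 CPM and then 234, 268 and 295 CPM (-0.27 ± 0.09, lower in 6 of 6 pairs), with the widest step between CT8 and CT32. Mt1, a metallothionein, had -0.22 ± 0.08. The median of the list was -0.0946, and 0.0538 without SCNx CT0 and SCNx CT32. That fit also lacked their phase partners, among them SCNx CT8, with the highest sum of its cycle (764.9 CPM). The direction of the list thus depended on these pairs.

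In the MHC class I list 11 of 12 members had a shift below 0 (median -0.2), with H2-K1 (-0.33 ± 0.13) and H2-D1 (-0.24 ± 0.10) at an unadjusted p under 0.05, beside 4.5% of all genes downward. Without SCNx CT0 and SCNx CT32 it was again 11 of 12, with a median of -0.167 and 3 members at such a p, and in Ctrl 11 of 12, with a median of -0.142. The list summed to 694.5 CPM in SCNx CT0, the library with the hepatocyte markers, and to 390.6 to 483.5 CPM in the rest of the first cycle. H2-K1 and H2-D1 are similar in sequence and their reads are uncertain. Among 20 cholesterol synthesis genes 2 had such a p upward, beside 3.27% of all genes, Srebf2 (0.14 ± 0.04) and Sqle (0.16 ± 0.07), and of 19 motile cilia genes 3 did, Dnah9, Hydin (0.40 ± 0.12) and Ccdc39 (0.30 ± 0.12). The immediate early gene Jun had 0.32 ± 0.13 (6 of 6 pairs) and Atp1b2, a subunit of the sodium pump, 0.10 ± 0.04 (6 of 6 pairs). Mia, counted among the ependymal markers, had 28.9, 31.9 and 38.4 CPM and then 20.9, 28.4 and 33.2 CPM (-0.28 ± 0.08). The interferon-stimulated (26), acute phase (9), fasting and feeding (16), retinoic acid (12), cell division (13) and epithelial (10) lists had no member at an unadjusted p under 0.05 in either direction. The 4 cold-inducible genes were all above 0 (median 0.23), as were the 4 endothelial (median 0.187) and the 5 pericyte and smooth muscle markers (median 0.244), again with no member at such a p.

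The clock list itself had no level shift, with 9 of 19 above 0, none at an unadjusted p under 0.05, a median of -0.00082 and a lowest adjusted p of 0.601 by edgeR. No shift in their mean level was resolved.

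The shift was tested against that of Ctrl in 13697 genes. With edgeR, 0 passed an adjusted p of 0.05 (lowest 0.240), 2356 (17.2%) had an unadjusted p under 0.05, and DESeq2 called 45. Vcl had a difference of 0.53 ± 0.11 on the log2 scale, made of 0.39 ± 0.09 in SCNx and -0.14 ± 0.06 in Ctrl, and Dnah2 of 0.36 ± 0.09. Mertk, a receptor tyrosine kinase for apoptotic cell uptake, had 0.43 ± 0.09, which came mainly from Ctrl (-0.33 ± 0.07, lower in 6 of 6 pairs). In the other direction, H2az1, a histone variant, had 47.6, 51.0 and 61.6 CPM in the first cycle and 42.4, 45.9 and 47.8 CPM in the second in SCNx, and 39.9, 44.5 and 47.5 CPM and then 44.8, 49.7 and 51.9 CPM in Ctrl (difference -0.35 ± 0.06). Cycs, cytochrome c, had -0.31 ± 0.06, lower in 6 of 6 pairs in SCNx and higher in 6 of 6 in Ctrl. Oaz1-ps, a pseudogene that shares reads with Oaz1 and is therefore uncertain, had -0.78 ± 0.15. The ribosomal protein list had 0 of 36 above 0 (52.8% of all genes) and 29 at an unadjusted p under 0.05 downward (9.27% of all genes), with a median of -0.245.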

How the data were processed

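The deposited table held estimated counts per gene for 26 libraries. The authors had made it with the nf-core/rnaseq pipeline (Salmon 1.9.0, STAR, SAMtools 1.16.1, StringTie 2.2.1 and cutadapt 3.4 are named in the submitters' processing notes) on GRCm39, from single-end reads of polyA-enriched, rRNA-depleted RNA. The 12 SCNx libraries were compared, with 12 Ctrl libraries beside them, and the 2 KO columns were not used.

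Expected counts were rounded, genes under a mean of 1 CPM were left out, and edgeR 4.0.16 (R 4.3.3) fitted the quasi-likelihood model with TMM, with the clock phase as a block for the level shift and 4 cell means of 3 libraries for day and night. Benjamini-Hochberg adjustment ran over all genes tested. DESeq2 1.42.0 and limma 3.58.1 were alternatives. The scripts were tested on simulated data. The range of log2 levels used a pseudocount of 0.5 CPM. Transcript lengths and promoters came from mouse reference tables of the build GRCm38, matched by gene identifier or symbol, and no coordinates of the files were used. P-values measure the spread between mice of different time points.

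Named genes were, by p and per direction, the first 10 for the level shift, 8 for the day-night change and 3 for the difference from Ctrl, then all clock list members and up to 4 per other list. Genes with a Gm number, a Rik symbol or no symbol were left out of the first 3 of these, and a few members are not reported here. The members and lists were chosen with earlier results of these data known. Mice of the same phase share only the hour: the correlation of their deviations from the cycle means was -0.242 to 0.237 in SCNx, over 0.1 for 2 of 6 pairs.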

Additional observations from a re-analysis of the deposited data

Results flagged for a closer look

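In a test for a library far from the other 5 of its cycle, 23 of 106 groups stood out, and chance gives about 1 in 20. Values are TMM-scaled CPM, summed over a list, with the range of the rest of the cycle in parentheses.

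SCNx CT0 held 15083 of hepatocyte markers (4.4 to 21.8), 1102 of acute phase and NF-kB targets (254.0 to 312.5), 694.5 of MHC class I genes (390.6 to 483.5) and 84.6 of ependymal markers (40.4 to 54.2). SCNx CT32 held 620.8 of neuronal and cerebellar markers (8.69 to 24.2), 824.9 of astrocyte markers (126.0 to 180.8), 262.0 of oligodendrocyte markers (60 to 101.1) and 112.7 of ependymal markers (35.6 to 47.9). The same library had the lowest sums of epithelial markers, 106757 (145607 to 167887), and of cerebrospinal fluid transport genes, 17677 (21221 to 22952). SCNx CT12 held 74.3 of neuronal markers (9.99 to 24.4) and 94 of oligodendrocyte markers (59.1 to 71.2).

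SCNx CT44 held 6659 of red blood cell markers (268.1 to 1459) and 16 of T, B and granulocyte markers (0.706 to 3.38). SCNx CT40 held 7680 of heat shock genes (5573 to 6355), and SCNx CT4 held 64.2 of macrophage markers (40.8 to 48.8). SCNx CT8 held 62.1 of melanocyte markers (7.22 to 8.33), 563.3 of fibroblast markers (481.6 to 507.8) and 254.7 of immediate early genes (235.8 to 241.4).

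SCNx CT8 also stood apart in Dbp, at 88.5 (17.5 to 39.7), and in Bhlhe41, at 31.5 (12 to 16.7), and it was the deepest of its cycle, with 49527614 estimated counts (42265185 to 44064405). Nr1d1 was at 35.5 in SCNx CT28 (14.3 to 20.7). The part of these libraries in the differences between cycles was not tested beyond leaving them out.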

How the results depend on the processing

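For the level shift, DESeq2 called 10 genes and limma-voom 9, against 0 with edgeR. Of the DESeq2 calls Pfkp, Pdcd11 and Myo7a were higher in the second cycle, and the other 7 were liver genes of SCNx CT0. Of the limma-voom calls only Prokr2 was higher in the second cycle (7.14 on the log2 scale). Its highest library had 0.59 CPM in the first cycle and 84.7 CPM in the second. Leaving out 1 library at a time gave 0 to 4 calls, the 4 being Hrg, Abcb11, Hsd17b13 and Orm1, liver genes. They were called without SCNx CT12 or SCNx CT36, and either leave-out removes the same phase pair, so the calls are not 2 separate results. At an unadjusted p under 0.05 the single leave-outs gave 484 to 1391 genes. Without the replicate block the level shift had 0 calls (1883 genes at an unadjusted p under 0.05), and phase pairing changed no call of the level shift.

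For the day-night change between cycles, DESeq2 called 1 gene (Fam205a2), the fit without SCNx CT0 and SCNx CT32 called 1 (Gm2446), leaving out 1 library at a time gave 0 to 1 (Gm2446, without SCNx CT32), and the replicate block by clock phase called 1 (F2, a liver gene). The day-night difference in the first cycle had 4 calls with DESeq2 (Myo1c, Nol4, Gm11518 and Fam205a2). For the day-night difference in the second cycle, DESeq2 called 10 genes, including Pdia3, Pdia6, Rpn1, Kdr and Rgs5, the fit without SCNx CT0 and SCNx CT32 called 1 (Gm2446), and single leave-outs 0 to 1. The level shift difference from Ctrl had 45 calls with DESeq2 and 0 in the other settings. The change of Mup7, a liver gene, reversed to -0.0343 with the day at CT4 to CT12 and the night at CT16 to CT0. Of 913 values of 42 named genes under these settings, 912 kept their direction. These genes were picked by their p in the main fits and the settings share most libraries, so a kept direction is no independent support. Some kept values were close to 0. The lowest change of Retsat was 0.0103, and the smallest shift of Cyp2c69 was -4.05e-13. The cause of these differences between tools was not tested.

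Each time point held 1 mouse, and 3 mice stood for a day or a night, which limits the sizes that can be resolved.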
